A study of Mus musculus with 37 samples.

Results

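The expression difference between livers of the combined genotype, TMEM106B-/-TDP-43Q331K, and WT livers was described across all genes. The rule took the 4 liver libraries titled BKOQ331K1 to 4 and the 4 titled WT1 to 4, 8 of the 37 libraries of the series. Of 55536 annotated genes, 16710 passed the filter on low counts and were tested. All mice were 10 months old, and RNA was sequenced from whole liver. The combined genotype carried the loss of TMEM106B, a membrane protein of late endosomes and lysosomes, together with the Q331K change of the RNA-binding protein TDP-43 at its own locus (a knock-in, per the series title). WT livers carried neither. The other liver groups, TMEM106B-/- (4 libraries) and TDP-43Q331K (4 libraries), carried 1 change each and served to place the named genes and to estimate the spread between libraries. The series title names lipid metabolism and obesity. The labels give no body weight, sex, diet or feeding state. They do not say how the TMEM106B allele was made, or whether each library came from 1 animal.

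The liver takes up, makes, stores and burns fat, and exports it in lipoproteins. It is also one of the most sexually dimorphic tissues of the mouse: growth hormone reaches it in pulses in males and more steadily in females, and the transcription factor STAT5B, activated through the growth hormone receptor, turns that pattern into male-biased and female-biased gene programmes. Pulsatile growth hormone keeps genes such as Hsd3b5, Mup20 and Serpina1e on in males and genes such as Cyp2b9 and Cyp2a4 off. PPAR-gamma, a fatty acid receptor that is low in normal liver, is known to turn on Cd36, Cidea, Cidec and Mogat1 in fatty mouse liver.

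Levels are counts per 1 M after TMM scaling (CPM). They are not scaled to gene length, so they were compared between libraries and not between genes. Fold changes are given as the combined genotype over WT on a log2 scale ± standard error. That error was derived from the test, as the size of the log2 fold change over the square root of its F statistic. The p-values are from the edgeR quasi-likelihood test, adjusted over all 16710 genes by the Benjamini-Hochberg method. A gene was called when its adjusted p was under 0.05, and "rose" and "fell" are used only of called genes. Libraries held 58.2 to 65.1 M counts in the combined genotype and 56.5 to 71.1 M in WT. Correlations of log2 CPM were 0.982 to 0.985 among combined livers, 0.972 to 0.988 among WT livers and 0.961 to 0.978 between the groups. All 8 livers carried the Y-linked Ddx3y (46.1 to 57.7 CPM in combined livers and 51.1 to 76.9 CPM in WT livers), and Xist stayed at 0.0154 to 0.125 CPM in combined livers and 0.0904 to 0.372 CPM in WT livers. The hepatocyte marker Alb, the albumin gene, had 65813, 85491, 95351 and 84268 CPM in combined livers, against 87035, 89239, 74782 and 81200.3 CPM in WT livers. Of 12 hepatocyte markers 3 fell (Serpina1a, Serpina1c and Apoa1) and none rose, 25.0% of the list against 7.04% of all genes. Their median log2 fold change was -0.33, and the list summed to 110582 to 138166 CPM in combined livers and 120735 to 149739 CPM in WT livers, high in every library. A pair of livers stood apart by acute phase transcripts: Saa1, serum amyloid A, had 2325, 45.4, 29.9 and 42.3 CPM in combined livers, against 161, 2159, 44.7 and 354 CPM in WT livers, and was high in combined replicate 1 and WT replicate 2. TMEM106B-/- replicate 4 also had high Saa1, and list counts that these 3 livers moved by more than 1.5 times are also given without them. In whole tissue, fewer cells of a type and less RNA per cell cannot be told apart.

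In combined livers 1176 genes were called against WT, 7.04% of those tested. Of these, 700 rose (4.19%) and 476 fell (2.85%). The median fold of a called gene was 1.84 in either direction, 319 genes rose and 197 fell by at least 2-fold, and 50 rose and 22 fell by at least 8-fold. The 4 combined and 4 WT libraries did not overlap for 1052 of the 1176 called genes, and for 2433 of all tested genes (14.6%). Called genes were found at all levels: 4.20% of the 4479 genes under 1 CPM, 7.30% of the 4696 genes between 1 and 10 CPM, 7.65% of the 6226 between 10 and 100 CPM and 12.9% of the 1309 above 100 CPM. On the first principal component of the 16 livers, which held 20.2% of the variance, combined livers lay at 31.9 to 52.4, TMEM106B-/- livers at -14.9 to 12.2, TDP-43Q331K livers at -23.4 to -8.66 and WT livers at -34.6 to -24.8. The count of calls depended on single libraries. It was 762 without WT replicate 2, 755 without WT replicate 3, 686 without combined replicate 2 and 681 without combined replicate 3.

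**Figure D1:**
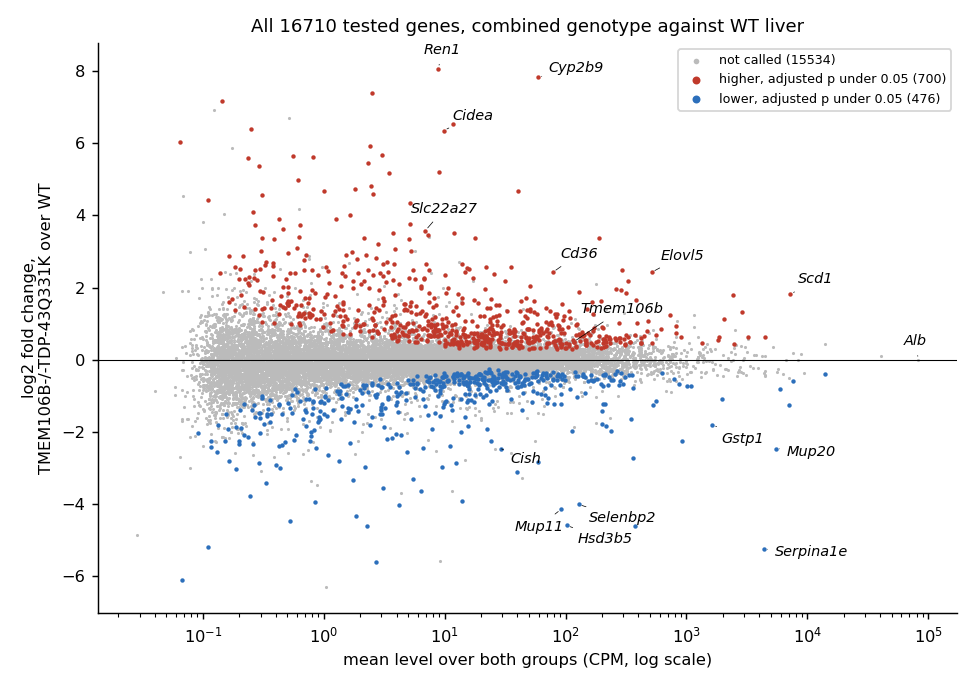
Each point is 1 of the 16710 tested genes, with its mean level over combined and WT livers in CPM on a log x axis and its log2 fold change, combined genotype over WT, on the y axis. Red points rose (700 genes), blue points fell (476 genes) and grey points were not called; Cyp2b9 lies among the highest and Serpina1e among the lowest of the labelled genes, and Alb lies near 0.

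RNA of the targeted genes was not lower in the combined genotype. Tmem106b (chromosome 6, 13069759 to 13089269 in GRCm38) had 122, 139, 143 and 136 CPM in combined livers, against 113, 107, 87.5 and 78.5 CPM in WT livers. Every combined liver lay above every WT liver, yet edgeR did not call the difference (log2 0.48 ± 0.15, adjusted p = 0.0625). Tmem106b was called higher with DESeq2, with limma-voom, with these 2 groups fitted alone and without WT replicate 1, and its adjusted p lay between 0.00785 and 0.155 over the 16 alternatives. The libraries labelled TMEM106B-/-TDP-43Q331K thus did not show less Tmem106b RNA than WT, and the group is called by its label. Counts over a whole gene do not check an allele that leaves RNA in place. Tardbp, which encodes TDP-43, had 116, 119.9, 100.4 and 101 CPM in combined livers, against 111, 143, 106 and 102 CPM in WT livers. Tardbp overlapped between the groups and was not called (log2 -0.08 ± 0.11, adjusted p = 0.72). Within 5 Mb of Tmem106b, 4 of 26 other tested genes were called (15.4%, against 7.04% of all genes), and within 5 Mb of Tardbp 8 of 89 (8.99%). The called neighbours of Tmem106b were St7, Gm4876, D830026I12Rik and 1110019D14Rik. The long noncoding RNA 1110019D14Rik, 0.9 Mb away, had 0.326, 0.301, 0.218 and 0.345 CPM in combined livers, against 1.63, 2.04, 2 and 1.82 CPM in WT livers. Its groups were far apart, and it fell 6.26-fold (log2 -2.65 ± 0.27, adjusted p = 2.55e-05). St7 had 9.67, 10.6, 10.1 and 11 CPM in combined livers, against 5.41, 5.07, 4.73 and 5.5 CPM in WT livers, with every combined liver above every WT liver (log2 0.999 ± 0.13, adjusted p = 0.00027). D830026I12Rik was at 0 counts in all 4 combined livers, where 3 counts over the group would give 0.012 CPM, against 0.0865, 0.0555, 0.168 and 0.226 CPM in WT livers.

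Further along chromosome 6, 14 of 115 genes up to 20 Mb from Tmem106b were called (12.2%), 16 of 131 between 20 and 40 Mb (12.2%) and 52 of 659 beyond (7.89%). Some of the smallest p-values of the comparison lay there. Atp6v0e2, which encodes a small subunit of the V-ATPase membrane sector and lies 35.5 Mb away, had 5.15, 6.45, 6.83 and 9.27 CPM in combined livers, against 0.709, 0.463, 0.587 and 0.663 CPM in WT livers. The lowest combined liver was above the highest WT liver by several times its level (log2 3.51 ± 0.30, adjusted p = 3.66e-06). Gstk1, a glutathione transferase of mitochondria and peroxisomes 29.2 Mb away, had 219.7, 189, 225 and 243 CPM in combined livers, against 88.7, 72.5, 78.6 and 92.1 CPM in WT livers. Gstk1 rose 2.64-fold (log2 1.40 ± 0.12, adjusted p = 3.66e-06). Irf5, an interferon regulatory factor used by macrophages and B cells and 16.5 Mb away, had 5.15, 4.47, 4.09 and 3.88 CPM in combined livers, against 11.9, 11.8, 11.1 and 14.3 CPM in WT livers, a fall of 2.79-fold (log2 -1.48 ± 0.13, adjusted p = 4.98e-06). In livers labelled TMEM106B-/- alone, Atp6v0e2 averaged 4.8 ± 2.48 CPM, Gstk1 187 ± 29.3 CPM and Irf5 8.89 ± 0.794 CPM (SD, n = 4). The combined livers differed from those for Irf5 (adjusted p = 0.000929) and did not pass the test for Atp6v0e2 (adjusted p = 0.404) or Gstk1 (adjusted p = 0.425). Whether these genes moved with flanking sequence of the allele was not tested.

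The clearest pattern was a fall of male-biased liver genes. Of 29 tested male-biased genes, 19 fell and 2 (Ces2e and Cyp2j5) rose, where 2.85% of all genes fell. Without WT replicate 2 or 3, combined replicate 1 or 3, or the 3 high acute phase livers, 1 rose. The median log2 fold change was -1.24, against -0.03 over all genes. Hsd3b5, a steroid-metabolizing enzyme made almost only in male mouse liver, had 4.76, 11.2, 7.63 and 8.82 CPM in combined livers, against 249.9, 171, 191 and 174 CPM in WT livers. The highest combined liver was far below the lowest WT liver, and Hsd3b5 fell 24.2-fold (log2 -4.60 ± 0.26, adjusted p = 7e-08), the smallest p of the comparison. Mup20, the major urinary protein darcin that males excrete as a pheromone, had 1263, 2019, 1727 and 1702 CPM in combined livers, against 10434, 9299, 8627 and 8724 CPM in WT livers. The groups were well apart (log2 -2.47 ± 0.18, adjusted p = 5.53e-07). Serpina1e, an alpha-1-antitrypsin gene, had 163, 123, 134 and 470.0 CPM in combined livers, against 9501, 13224, 5915 and 5349 CPM in WT livers, a 38.2-fold fall (log2 -5.25 ± 0.64, adjusted p = 0.000322) in which combined replicate 4 was the highest of its group. Selenbp2, a selenium-binding protein, had 12.9, 8.12, 11.5 and 27.2 CPM in combined livers, against 344, 162, 90.2 and 369 CPM in WT livers. All combined livers were below all WT livers for Selenbp2 (log2 -4.02 ± 0.78, adjusted p = 0.00767). Cyp7b1, an oxysterol hydroxylase, had 83.7, 72.7, 102 and 101 CPM in combined livers, against 312, 329, 238 and 358 CPM in WT livers. Cyp7b1 fell 3.45-fold (log2 -1.79 ± 0.21, adjusted p = 9.76e-05). Gstp1, the glutathione transferase most abundant in male mouse liver, had 562, 762, 738 and 856 CPM in combined livers, against 2628, 2628, 2587 and 2357 CPM in WT livers. Gstp1 did not overlap between the groups (log2 -1.81 ± 0.18, adjusted p = 1.62e-05).

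Called female-biased genes went the other way. Of 25 tested members of that list 14 rose and none fell. A further 6 members (Cyp3a16, Cyp3a41a, Cyp3a41b, Cyp3a44, Sult2a1 and Sult2a2) lay below the filter. Members near 0 in WT could pass the filter only through groups that express them, and could hardly fall. The list's count and its median of 2.70 are thus descriptions, and the count is not weighed against the 4.19% of all genes that rose. Cyp2b9, a cytochrome P450 of female mouse liver, had 80.1, 153, 90.8 and 148 CPM in combined livers, against 0.19, 0.759, 0.21 and 0.903 CPM in WT livers. It was near 0 in WT and present in every combined liver (log2 7.83 ± 0.86, adjusted p = 0.000171). Cyp2b13, its close relative, had 4.91, 4.86, 1.25 and 8.03 CPM in combined livers, against 0.156, 0.111, 0 and 0.0564 CPM in WT livers. For Cyp2b13, every combined liver lay above every WT liver (log2 5.92 ± 0.81, adjusted p = 0.000499). Cyp2a4, a steroid hydroxylase, had 7.69, 39, 15.5 and 7.18 CPM in combined livers, against 0.415, 0.333, 0.643 and 0.465 CPM in WT livers. Cyp2a4 was highest in combined replicate 2 (log2 5.204 ± 0.83, adjusted p = 0.00204). Hao2, a peroxisomal 2-hydroxy acid oxidase, had 4.12, 8.28, 9.58 and 5.16 CPM in combined livers, against 0.104, 0.315, 0.224 and 0.113 CPM in WT livers, with no overlap (log2 5.17 ± 0.67, adjusted p = 0.000338). Slc22a27, an organic anion transporter, had 11.3, 17.1, 13.2 and 9.49 CPM in combined livers, against 0.675, 1.07, 1.43 and 1.09 CPM in WT livers, an 11.9-fold rise (log2 3.58 ± 0.30, adjusted p = 3.66e-06). Its relative Slc22a29 had 3.69, 6.05, 5.76 and 4.95 CPM in combined livers, against 0.571, 0.574, 0.601 and 0.465 CPM in WT livers. Slc22a29 lay above WT in all 4 combined livers (log2 3.21 ± 0.32, adjusted p = 1.65e-05). Slc22a28, a further relative, fell 2.25-fold (log2 -1.17 ± 0.16, adjusted p = 0.000322).

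The promoters of the Cyp2b pair are shown because the 2 genes rose together. Reads may be split between such copies, so that the level of either alone is uncertain. Promoter sequence does not bear on that, and the transcripts were not compared. The sequences are the 250 bases before the start on the plus strand of chromosome 7 in GRCm38.p6, from RefSeq: chr7:26173159-26173408 for Cyp2b9 and chr7:26061245-26061494 for Cyp2b13. They were identical at 248 of 250 bases, with no gap, and capitals mark the 2 that differed, T48C and C104T, counted from 1 at the 5′ end with the Cyp2b9 base first.
Cyp2b9: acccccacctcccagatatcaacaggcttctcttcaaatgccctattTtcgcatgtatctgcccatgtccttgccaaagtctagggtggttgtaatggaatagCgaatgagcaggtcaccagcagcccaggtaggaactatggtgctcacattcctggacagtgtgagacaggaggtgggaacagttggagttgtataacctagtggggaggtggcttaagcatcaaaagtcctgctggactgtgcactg
Cyp2b13: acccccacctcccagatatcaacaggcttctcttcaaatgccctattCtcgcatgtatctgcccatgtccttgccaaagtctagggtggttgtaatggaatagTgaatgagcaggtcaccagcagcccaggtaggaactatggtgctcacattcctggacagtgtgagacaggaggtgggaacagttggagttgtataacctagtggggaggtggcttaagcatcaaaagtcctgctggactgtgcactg

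STAT5 binds a motif written TTCNNNGAA, which reads the same on both strands. In the 250 bases before the start it was found in 8.13% of the 27025 genes with a RefSeq promoter here, and in 7.36% of those tested. Among called male-biased genes that fell, 1 of 15 with a promoter held it, and among called female-biased genes that rose 3 of 11 (A1bg, Slc22a26 and Sult3a1). Of all called genes, 7.81% of those that fell and 8.53% of those that rose held it, near the share over all tested genes. An example from each list is shown with the motif in capitals, both chosen for holding it: Slc22a26, an organic anion transporter that rose (log2 2.70 ± 0.61, adjusted p = 0.016), at chr19:7802668-7802917 on the minus strand, and C8a, a complement subunit that fell (log2 -1.15 ± 0.26, adjusted p = 0.0127), at chr4:104876399-104876648 on the minus strand. The motif began 141 bases before the start of Slc22a26 and 228 bases before that of C8a. A match is not a binding site.
Slc22a26: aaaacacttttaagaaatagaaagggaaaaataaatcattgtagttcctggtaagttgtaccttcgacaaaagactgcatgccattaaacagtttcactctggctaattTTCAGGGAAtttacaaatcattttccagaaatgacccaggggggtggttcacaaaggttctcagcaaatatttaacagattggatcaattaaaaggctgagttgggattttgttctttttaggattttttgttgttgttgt
C8a: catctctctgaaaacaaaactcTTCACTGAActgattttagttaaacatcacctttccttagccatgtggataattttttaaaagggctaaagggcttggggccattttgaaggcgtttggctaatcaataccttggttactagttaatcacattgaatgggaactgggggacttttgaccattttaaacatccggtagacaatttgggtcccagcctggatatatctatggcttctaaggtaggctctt

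In a list of 18 genes of growth hormone and STAT5 signalling and related receptors and carriers, 1 rose (Igfbp3) and 2 fell (Lifr and Cish). That was 16.7% of the list against 7.04% of all genes, and the median was -0.37. Among the called members, only Cish is a STAT5 feedback gene, so the share does not describe the growth hormone signal itself. The receptor Ghr had 364, 357, 376 and 394 CPM in combined livers, against 441, 399, 336 and 348 CPM in WT livers. Ghr overlapped between the groups and was not called (log2 -0.03 ± 0.14, adjusted p = 0.924). Stat5b had 46.6, 39.7, 40.02 and 36.5 CPM in combined livers, against 41.8, 42.7, 34.2 and 38.6 CPM in WT livers. Stat5b overlapped between the groups and was not called (log2 0.05 ± 0.11, adjusted p = 0.851). Igf1, the insulin-like growth factor that growth hormone induces, had 629, 354, 421 and 428 CPM in combined livers, against 526, 696, 533 and 629 CPM in WT livers, lower on average in the combined genotype but overlapping through its replicate 1 (log2 -0.38 ± 0.18, adjusted p = 0.228). Cish, a feedback inhibitor that STAT5 induces within minutes of a pulse, had 8.32, 16.7, 2.5 and 8.46 CPM in combined livers, against 78.6, 51.8, 42.4 and 27.5 CPM in WT livers. Every combined liver was below every WT liver (log2 -2.48 ± 0.70, adjusted p = 0.0487), but the call was lost whichever of the 8 libraries was left out, without the 3 high acute phase livers, with no filter and with these 2 groups fitted alone (adjusted p up to 0.169). Socs2, another such inhibitor, had 19, 8.92, 4.16 and 9.53 CPM in combined livers, against 44.3, 42, 14.5 and 10.6 CPM in WT livers, with overlap (log2 -1.42 ± 0.63, adjusted p = 0.2). Lifr, the receptor of leukaemia inhibitory factor, had 141, 95.6, 102 and 99.8 CPM in combined livers, against 373, 331.5, 216 and 258 CPM in WT livers. Lifr fell 2.69-fold (log2 -1.43 ± 0.18, adjusted p = 0.000142). Igfbp3, which carries IGF1 in blood, had 12.7, 12.3, 15.7 and 9.49 CPM in combined livers, against 8.06, 6.92, 7.02 and 5.6 CPM in WT livers. Igfbp3 lay above WT in all 4 combined livers (log2 0.87 ± 0.17, adjusted p = 0.00439). Bcl6, a male-biased repressor, had 35.7, 15.1, 73.8 and 36.5 CPM in combined livers, against 27.9, 27.3, 15.7 and 21.5 CPM in WT livers. It was highest in combined replicate 3 and not called (log2 0.80 ± 0.55, adjusted p = 0.432). Cux2, a female-biased repressor, had 0.62, 0.452, 0.624 and 0.501 CPM in combined livers, against 0.536, 0.481, 0.685 and 0.846 CPM in WT livers. Cux2 overlapped between the groups and was not called (log2 -0.22 ± 0.91, adjusted p = 0.921). Of 15 regulators of sex bias 1 fell (6.67%, against 7.04% of all genes). In that list 2 fell without WT replicate 3, with limma-voom or with at least 1 CPM in 4 libraries. With DESeq2 or with these 2 groups fitted alone 3 fell. Foxa1, a pioneer factor of liver genes, fell 1.96-fold (log2 -0.97 ± 0.22, adjusted p = 0.0123), a call that was lost without the 3 high acute phase livers (adjusted p up to 0.0705).

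**Figure D2:**
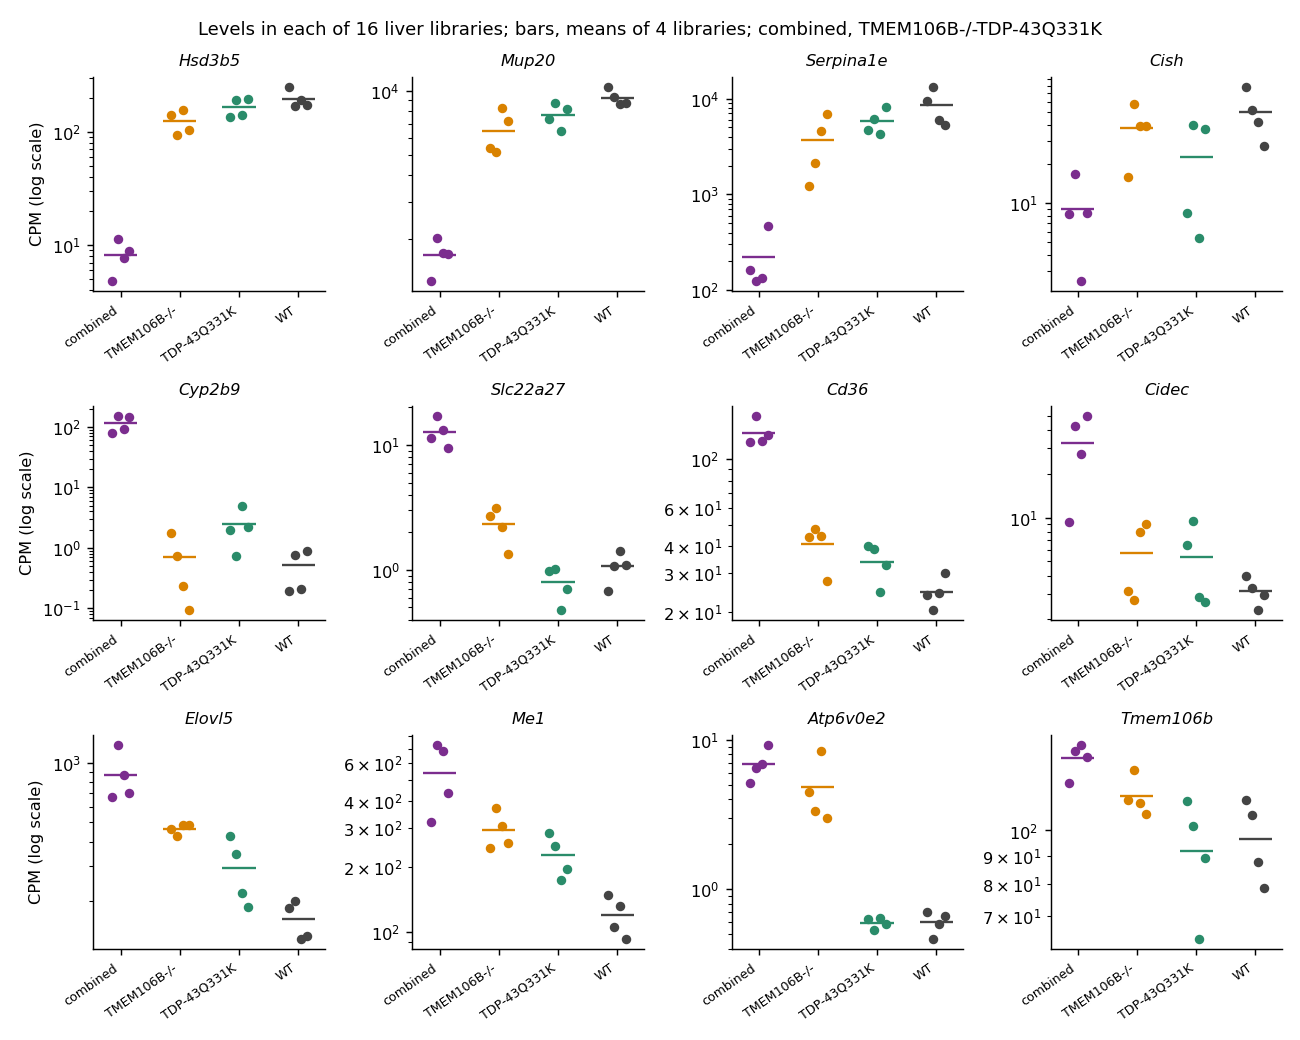
Each dot is 1 liver library, in CPM on a log y axis, for 12 genes, with the 4 genotypes along the x axis and a bar at each mean (4 libraries). Hsd3b5, Mup20 and Serpina1e lie low and Cyp2b9, Slc22a27 and Cd36 high in all 4 combined livers, while Atp6v0e2 is high in both groups labelled TMEM106B-/-.

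Some male-biased genes belong to abundant families, and summed levels of these families differed. The 18 tested Mup genes, which encode urinary proteins, summed to 8440 ± 1125 CPM in combined livers and 21059 ± 1291 CPM in WT livers (SD, n = 4). Of these genes 8 fell (44.4%, against 7.04% of all genes) and none rose. Mup3 had 6149.9, 5573, 5338 and 7413 CPM in combined livers, against 8476, 9686, 8448 and 9984 CPM in WT livers, a smaller fall of 1.5-fold (log2 -0.58 ± 0.13, adjusted p = 0.0123). Mup11 had 8.84, 4.55, 7.05 and 18.8 CPM in combined livers, against 191, 194, 163 and 148 CPM in WT livers, a fall of 17.8-fold (log2 -4.15 ± 0.42, adjusted p = 6.01e-05). The 19 tested Serpina genes, serine protease inhibitors secreted into plasma, summed to 17697 CPM in combined livers and 38418 CPM in WT livers. Of these genes 5 fell (26.3%) and none rose. Serpina3k had 5238, 2717, 3406 and 5343 CPM in combined livers, against 10482, 11085, 8485 and 9978 CPM in WT livers. For Serpina3k, every combined liver lay below every WT liver (log2 -1.26 ± 0.22, adjusted p = 0.00201). Serpina1c had 4055, 3847, 3445 and 5946 CPM in combined livers, against 7401, 7915, 7066 and 8299 CPM in WT livers. All combined livers were below all WT livers for Serpina1c (log2 -0.83 ± 0.15, adjusted p = 0.00306). In both families the 4 combined sums lay below the 4 WT sums. Members of these families share long stretches of sequence, and the labels do not say how the authors assigned such reads, so single members are uncertain. The 3 Cyp2b genes summed to 126.6 CPM in combined livers and 0.963 CPM in WT livers.

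**Figure D3:**
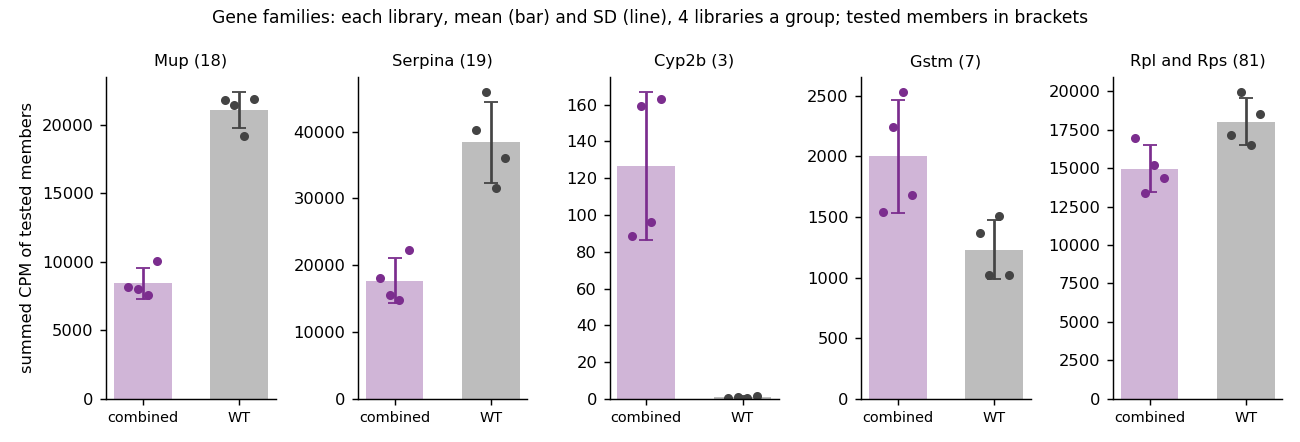
Summed CPM of the tested members of 5 gene families (number in brackets) in combined livers, left, and WT livers, right; dots are libraries, bars means and lines SD (n = 4). Mup and Serpina sums are lower and Cyp2b sums higher in every combined liver, with 8440 against 21059 CPM on average for Mup.

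Of 17 tested genes of fat uptake and lipid droplets that PPAR-gamma is known to drive, 9 rose and none fell. That was 52.9% of the list, against 7.04% of all genes, and the median was 0.96. A further 3 members (Aqp7, Adipoq and Lep) lay below the filter. A member near 0 in WT, such as Cidea, could pass the filter only through groups that express it and could hardly fall. The share includes Cidea and is a description. Cd36, the fatty acid translocase, had 120.2, 159, 121 and 129 CPM in combined livers, against 24, 20.3, 24.3 and 30.2 CPM in WT livers. It was about evenly raised in all 4 combined livers, 5.36-fold over WT (log2 2.42 ± 0.19, adjusted p = 1.36e-06), the smallest p among genes that rose. Cidec, which fuses lipid droplets, had 9.38, 42.5, 27.1 and 49.9 CPM in combined livers, against 3.98, 3.29, 2.31 and 2.95 CPM in WT livers. Cidec was lowest in combined replicate 1 (log2 3.36 ± 0.58, adjusted p = 0.00369). Cidea, its relative best known from brown fat, had 10.6, 27.7, 11.4 and 27.9 CPM in combined livers, against 0.45, 0.037, 0.154 and 0.296 CPM in WT livers, almost absent from WT (log2 6.35 ± 1.11, adjusted p = 0.00405). Mogat1, which makes diacylglycerol from monoacylglycerol, had 6.68, 10.2, 8.8 and 11.9 CPM in combined livers, against 1.11, 0.962, 0.783 and 1.83 CPM in WT livers. Mogat1 rose 8-fold (log2 3.001 ± 0.34, adjusted p = 6.99e-05). Vldlr, a receptor for triglyceride-rich lipoproteins, had 4.94, 6.69, 4.43 and 3.73 CPM in combined livers, against 0.623, 0.629, 1.3 and 1.14 CPM in WT livers. Vldlr did not overlap between the groups (log2 2.41 ± 0.42, adjusted p = 0.00257). Pparg itself had 16.6, 18.6, 12.1 and 15 CPM in combined livers, against 11.2, 6.92, 8.18 and 10.7 CPM in WT livers, without overlap (log2 0.75 ± 0.21, adjusted p = 0.0368), but the call was lost without combined replicates 1, 2 and 4, without WT replicates 2 and 3 and without the 3 high acute phase livers (adjusted p up to 0.164). Among droplet coats and lipases, 1 of 18 rose (5.56%, against 7.04% of all genes), the coat protein Plin3 (log2 0.81 ± 0.15, adjusted p = 0.00295). In that list 3 rose without WT replicate 4 or with these 2 groups fitted alone, and 2 without the 3 high acute phase livers. With DESeq2 4 rose, and with limma-voom also 4, where these tools called 1851 and 1940 of all genes. Pnpla2, the main triglyceride lipase, had 79.8, 64.9, 87.9 and 101 CPM in combined livers, against 70.8, 66.4, 67.7 and 59.7 CPM in WT livers. Pnpla2 was not called. The adipocyte genes Adipoq, Lep and Plin1 were below the filter, and Retn, which encodes resistin, had 0.202, 0.196, 0.25 and 0.207 CPM in combined livers, against 0, 0.037, 0 and 0 CPM in WT livers (adjusted p = 0.0126).

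Of 35 tested genes of fatty acid and glyceride synthesis, 15 rose (42.9%, against 7.04% of all genes) and none fell. The median was 0.64. Scd1, the desaturase that makes oleate, had 8704, 13104, 14592 and 8755 CPM in combined livers, against 4595, 2858, 2675 and 2731 CPM in WT livers. WT replicate 1 was the highest of its group, still below every combined liver (log2 1.81 ± 0.27, adjusted p = 0.000697). Elovl5, which lengthens polyunsaturated fatty acids, had 668, 1234, 871 and 705 CPM in combined livers, against 185, 201, 128 and 133 CPM in WT livers. Elovl5 rose 5.36-fold (log2 2.42 ± 0.25, adjusted p = 4.09e-05). Me1, the malic enzyme that supplies NADPH, had 321, 730.5, 685 and 435 CPM in combined livers, against 148, 105, 132 and 92.2 CPM in WT livers. For Me1, every combined liver lay above every WT liver (log2 2.19 ± 0.25, adjusted p = 9.08e-05). Acss2, which makes acetyl-CoA from acetate, had 376, 567, 439 and 290.2 CPM in combined livers, against 126, 81.8, 126 and 95.2 CPM in WT livers. Acss2 lay above WT in all 4 combined livers (log2 1.96 ± 0.24, adjusted p = 0.000178). Acsl5, an acyl-CoA synthetase, had 437, 621, 597 and 434 CPM in combined livers, against 264, 253, 251 and 271 CPM in WT livers. Acsl5 did not overlap between the groups (log2 1.01 ± 0.14, adjusted p = 0.000447). Gpat3, which starts glycerolipid synthesis, had 6.08, 12, 10.9 and 8.16 CPM in combined livers, against 1.33, 1.67, 1.52 and 2.13 CPM in WT livers, with combined livers far above WT (log2 2.48 ± 0.25, adjusted p = 1.85e-05). The other called members were Acly, Fads2, Elovl6, Fads1, Acaca, Acacb, Agpat3, Slc25a1 and Pnpla3. Fasn, the fatty acid synthase, had 1103, 2687, 1887 and 835 CPM in combined livers, against 499, 272, 1148 and 839 CPM in WT livers. Fasn overlapped between the groups and was not called (log2 1.24 ± 0.51, adjusted p = 0.164). The regulators did not pass either. Srebf1, the SREBP1 gene, had 203, 276, 237 and 288 CPM in combined livers, against 422, 139, 428 and 439 CPM in WT livers, with WT replicate 2 the lowest of all (log2 -0.51 ± 0.37, adjusted p = 0.464). Mlxipl, the ChREBP gene, had 536, 610.2, 577 and 474 CPM in combined livers, against 580.5, 687, 674 and 697 CPM in WT livers. Mlxipl overlapped between the groups and was not called (log2 -0.26 ± 0.20, adjusted p = 0.485).

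The median of 53 tested genes of fatty acid oxidation was 0.46. Of these, 18 rose (34.0%, against 7.04% of all genes), none fell and 35 did not pass. This count moved with single livers: it was 6 without WT replicate 2, 11 without WT replicate 3, 10 without combined replicate 2, 6 without combined replicate 3, 10 without combined replicate 4 and 10 without the 3 high acute phase livers. Ehhadh, the peroxisomal bifunctional enzyme, had 178, 232, 329 and 214 CPM in combined livers, against 111, 76.9, 102 and 102 CPM in WT livers. Ehhadh did not overlap between the groups (log2 1.28 ± 0.18, adjusted p = 0.000413). Vnn1, a pantetheinase and known PPAR-alpha target, had 55.5, 90.6, 67 and 81.3 CPM in combined livers, against 35.5, 18.1, 27.1 and 30.2 CPM in WT livers. Every combined liver was above WT (log2 1.41 ± 0.27, adjusted p = 0.00523). Crat, carnitine acetyltransferase, had 63.9, 81.4, 98.8 and 82.1 CPM in combined livers, against 37.2, 46.2, 48.2 and 46.5 CPM in WT livers. For Crat, every combined liver lay above every WT liver (log2 0.87 ± 0.20, adjusted p = 0.0135). Ppara, the receptor that drives these genes, had 50.4, 43.4, 54.8 and 56.7 CPM in combined livers, against 37.7, 31.1, 60.9 and 53 CPM in WT livers. Ppara overlapped between the groups and was not called (log2 0.17 ± 0.18, adjusted p = 0.64). Cpt1a, which admits fatty acids to mitochondria, had 241, 213, 255 and 301 CPM in combined livers, against 225, 181, 184 and 192 CPM in WT livers. Cpt1a overlapped between the groups and was not called (log2 0.37 ± 0.19, adjusted p = 0.262).

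Several sterol enzymes rose. In the list of cholesterol synthesis and uptake, 9 of 31 rose (29.0%, against 7.04% of all genes) and none fell. The median was 0.66. Dhcr7, the last enzyme of the pathway, had 133, 119, 123 and 85.3 CPM in combined livers, against 46.4, 40.6, 51 and 53.1 CPM in WT livers, a rise of 2.41-fold (log2 1.27 ± 0.15, adjusted p = 9.07e-05). Acat2, which condenses acetyl-CoA, had 112, 149, 123 and 79.2 CPM in combined livers, against 61.9, 47.4, 53.8 and 39.8 CPM in WT livers. For Acat2, every combined liver lay above every WT liver (log2 1.19 ± 0.19, adjusted p = 0.00127). Nsdhl and Sc5d, which act on late sterols, rose 2.04-fold (log2 1.03 ± 0.17, adjusted p = 0.00172) and 2.11-fold (log2 1.07 ± 0.21, adjusted p = 0.00447). Mvd, mevalonate decarboxylase, had 83.8, 98.7, 72.6 and 32.2 CPM in combined livers, against 19.2, 23.8, 29.3 and 15.9 CPM in WT livers, lowest among combined livers in replicate 4 (log2 1.70 ± 0.33, adjusted p = 0.00608). Srebf2, the SREBP2 gene, had 69.2, 52.6, 56.3 and 48.3 CPM in combined livers, against 45.6, 67, 50.2 and 53.5 CPM in WT livers. Srebf2 overlapped between the groups and was not called (log2 0.07 ± 0.15, adjusted p = 0.848). Of 12 LXR targets none was called in either direction by edgeR (3 at an unadjusted p under 0.05, 1 with DESeq2 and 1 with limma-voom), and their median was 0.05.

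In a pooled list of glycolysis, the pentose phosphate path, glucose production and their regulators, 15 of 40 genes rose and none fell (median 0.42). That was 37.5% of the list, against 7.04% of all genes. The count was 9 without WT replicate 2 and 8 without combined replicate 3. Pgd, which makes NADPH in the pentose phosphate path, had 81.3, 129, 114 and 78 CPM in combined livers, against 41.1, 28.9, 41 and 39.3 CPM in WT livers. Pgd rose 2.67-fold (log2 1.42 ± 0.16, adjusted p = 6.99e-05). Taldo1, transaldolase of the same path, had 166, 175, 182 and 168 CPM in combined livers, against 121, 118, 126 and 137 CPM in WT livers. Taldo1 did not overlap between the groups (log2 0.46 ± 0.09, adjusted p = 0.00337). Eno1 and Gapdh, glycolytic enzymes, rose by small amounts. Gapdh had 1866, 2268, 2194 and 2268 CPM in combined livers, against 1463, 1616, 1378 and 1438 CPM in WT livers. For Gapdh, every combined liver lay above every WT liver (log2 0.54 ± 0.11, adjusted p = 0.00523). Eno1 rose 1.62-fold (log2 0.70 ± 0.13, adjusted p = 0.00339). Pdk4, which shuts off pyruvate oxidation, had 5.24, 11.6, 7.75 and 3.31 CPM in combined livers, against 2.21, 2.55, 2.14 and 2.72 CPM in WT livers. Pdk4 lay above WT in all 4 combined livers (log2 1.53 ± 0.31, adjusted p = 0.00644). It lies within 20 Mb of Tmem106b. Pdk4 and Ppargc1a count both here and among the fatty acid oxidation genes that rose. Pck1 of glucose production had 3925, 1562, 3969.6 and 3359 CPM in combined livers, against 2941, 1787, 1004 and 1574 CPM in WT livers. G6pc, which releases free glucose, had 363, 501, 366 and 393 CPM in combined livers, against 201, 259, 111 and 479.8 CPM in WT livers. Neither was called (log2 0.81 ± 0.40, adjusted p = 0.246 for Pck1, log2 0.63 ± 0.41, adjusted p = 0.399 for G6pc). Of 23 genes of insulin signalling and glycogen, 2 rose and 1 fell. None rose without WT replicate 2 or 4, combined replicate 2 or the 3 high acute phase livers, and 1 rose without WT replicate 3 or combined replicate 1, 3 or 4. The receptor Insr had 92.1, 77.9, 83.9 and 96.5 CPM in combined livers, against 93.9, 94.9, 98.1 and 89.4 CPM in WT livers. Insr overlapped between the groups and was not called (log2 -0.10 ± 0.09, adjusted p = 0.561). Irs1 and Irs2, its substrates, were not called either. Enho, which encodes the secreted peptide adropin, had 4.85, 1.2, 2.82 and 3.14 CPM in combined livers, against 25.2, 33.4, 17.9 and 11.5 CPM in WT livers. Enho fell 7.32-fold (log2 -2.87 ± 0.41, adjusted p = 0.000856).

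**Figure D4:**
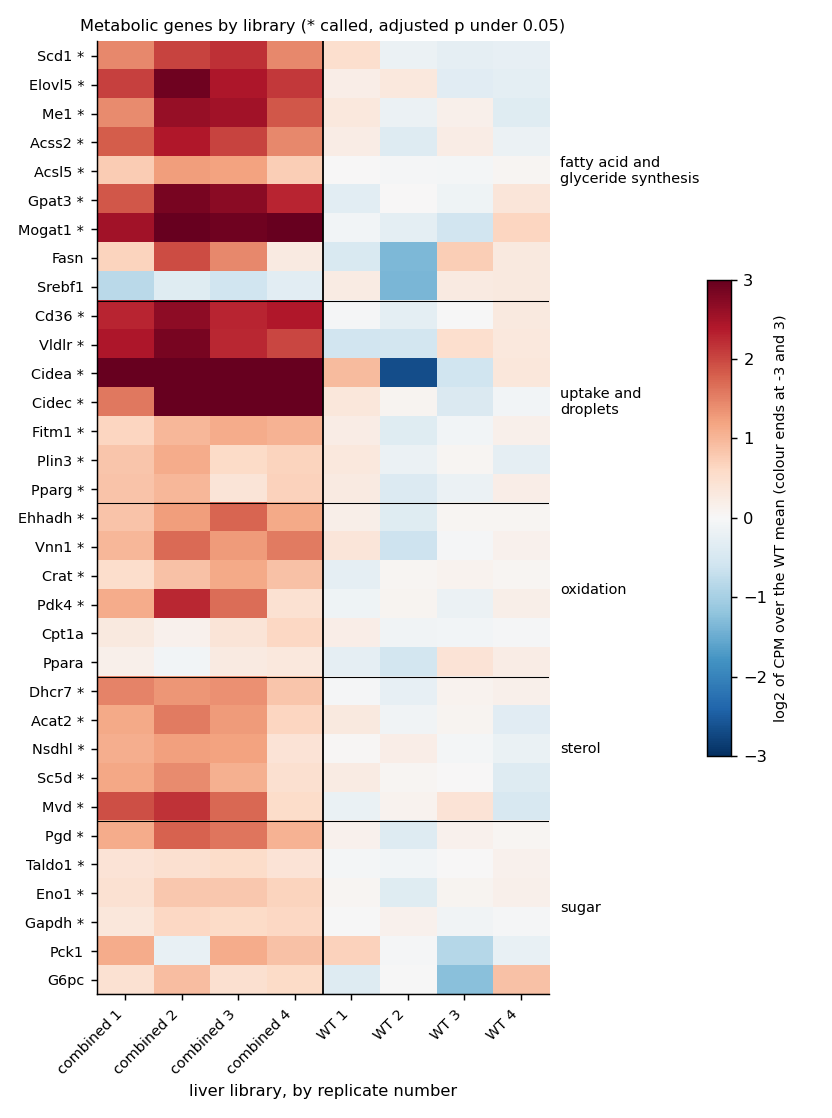
Heat map of log2 of CPM over the WT mean for 33 metabolic genes (rows) in the 4 combined livers, left of the line, and the 4 WT livers; an asterisk marks called genes and colours end at -3 and 3. Uptake, synthesis and sterol enzymes are red in the combined livers, while Fasn, Srebf1, Pck1 and G6pc vary within both groups.

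Of 29 bile acid genes 3 rose and 2 fell, 17.2% of the list against 7.04% of all genes. Cyp8b1, the 12-alpha-hydroxylase that makes cholic acid, had 462, 419, 491 and 624 CPM in combined livers, against 138, 126, 105 and 184 CPM in WT livers. Cyp8b1 rose 3.61-fold (log2 1.85 ± 0.30, adjusted p = 0.00178). Cyp7a1, the rate-limiting enzyme, had 149.7, 44, 93.3 and 261 CPM in combined livers, against 61.1, 42.5, 136 and 169 CPM in WT livers, spread widely in both groups (log2 0.42 ± 0.62, adjusted p = 0.751). The uptake transporters went apart. Slco1a1, which is male-biased, had 58.5, 172, 129 and 142 CPM in combined livers, against 385, 286, 292 and 224 CPM in WT livers. For Slco1a1, every combined liver lay below every WT liver (log2 -1.24 ± 0.27, adjusted p = 0.0104). Slco1a4 had 41.1, 35.7, 42.9 and 38.9 CPM in combined livers, against 16.9, 12.9, 12.3 and 13.1 CPM in WT livers. All combined livers were above all WT livers for Slco1a4 (log2 1.52 ± 0.34, adjusted p = 0.016). Of 26 lipoprotein genes 2 rose and 2 fell (15.4%). In that list 1 rose without WT replicate 1, combined replicate 1 or 3 or the 3 high acute phase livers, and 1 fell when any library but WT replicate 3 was left out. Apoa4, an apolipoprotein, had 1576, 6846, 2420.0 and 4096 CPM in combined livers, against 1034, 1819, 584 and 909.8 CPM in WT livers, overlapping through combined replicate 1 and WT replicate 2 (log2 1.78 ± 0.40, adjusted p = 0.0148). The call was lost with these 2 groups fitted alone (adjusted p up to 0.0843). Sort1, a sorting receptor linked to lipoprotein export, had 2.54, 3.68, 5.55 and 3 CPM in combined livers, against 13.8, 7.83, 12.7 and 8.94 CPM in WT livers. Sort1 fell 2.92-fold (log2 -1.55 ± 0.27, adjusted p = 0.00272). Apob, the core protein of VLDL, had 3119, 3017, 3016 and 3071 CPM in combined livers, against 3719, 3436, 2388 and 2385 CPM in WT livers. Apob was not called (log2 0.04 ± 0.16, adjusted p = 0.93). Of 44 genes of amino acid breakdown and the urea cycle 4 rose and 1 fell (11.4%). Only 1 rose without WT replicate 2, 3 or 4 or combined replicate 1 or 3, 2 rose without combined replicate 4 or the 3 high acute phase livers, and 8 rose with limma-voom. The 1 fall (Kyat1) was lost when any library but combined replicate 1 was left out. The urea cycle enzyme Cps1 had 1382, 497, 1163 and 796 CPM in combined livers, against 1944, 1363, 762 and 755 CPM in WT livers, with overlap. Bhmt, which remethylates homocysteine from betaine, had 5294, 2482, 3915 and 4879 CPM in combined livers, against 1503, 1525, 1008 and 2636 CPM in WT livers. Combined replicate 2 was below WT replicate 4, and Bhmt rose 2.48-fold (log2 1.31 ± 0.27, adjusted p = 0.00761).

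Several detoxification genes rose. Of 7 tested Gstm genes, mu-class glutathione transferases, 6 rose (85.7%, against 7.04% of all genes) and none fell. They summed to 2000 CPM in combined livers and 1229 CPM in WT livers on average. Gstm2 had 115, 146, 186 and 111 CPM in combined livers, against 44.6, 47, 52.2 and 46 CPM in WT livers. Gstm2 did not overlap between the groups (log2 1.56 ± 0.24, adjusted p = 0.000884). Gstm4 had 74.3, 96.8, 93.1 and 65 CPM in combined livers, against 43.7, 32.3, 30.0 and 30.3 CPM in WT livers. For Gstm4, every combined liver lay above every WT liver (log2 1.27 ± 0.17, adjusted p = 0.00027). In the NRF2 list of 23 genes, which holds several of them, 5 rose, all of them glutathione transferases, and Osgin1 fell. That was 26.1% of the list. Nqo1, the classical NRF2 target, had 6.59, 8.93, 8.08 and 5.8 CPM in combined livers, against 3.2, 3.9, 5.55 and 3.95 CPM in WT livers. Nqo1 lay above WT in all 4 combined livers and was not called (log2 0.82 ± 0.30, adjusted p = 0.104). Osgin1, an oxidative stress response gene, had 97.6, 149.6, 70.0 and 64.1 CPM in combined livers, against 229, 738, 332 and 205 CPM in WT livers, with WT replicate 2 far above the rest (log2 -1.98 ± 0.38, adjusted p = 0.00608), and its call was lost with these 2 groups fitted alone (adjusted p up to 0.0517). Cyp2b10, the classical target of the receptor CAR, had 3.38, 1.48, 3.9 and 6.92 CPM in combined livers, against 0.329, 0.111, 0.308 and 0.719 CPM in WT livers. Cyp2b10 did not overlap between the groups (log2 3.38 ± 0.68, adjusted p = 0.00773). It also counts among the female-biased genes that rose. In the list of 24 CAR and PXR targets 5 rose and 2 fell (29.2%, against 7.04% of all genes). Only 1 fell without WT replicate 2, 3 or 4 or combined replicate 2 or 3. Aldh1a7, a retinal dehydrogenase relative, had 333, 377, 435 and 330.0 CPM in combined livers, against 192, 169, 165 and 202 CPM in WT livers. For Aldh1a7, every combined liver lay above every WT liver (log2 1.02 ± 0.12, adjusted p = 9.76e-05). The retinol dehydrogenases Rdh11 and Rdh16 rose 2.54-fold (log2 1.34 ± 0.19, adjusted p = 0.000447) and 2.21-fold (log2 1.15 ± 0.19, adjusted p = 0.00174).

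Of 21 ATF4 genes 4 rose (Vldlr, Gdf15, Atf5 and Fgf21) and none fell, 19.0% of the list against 7.04% of all genes. Vldlr also counts among the PPAR-gamma genes that rose, and Fgf21 among the fatty acid oxidation genes that rose. In fits without WT replicate 3 or 4 or combined replicate 2 or 3, 2 rose, and with these 2 groups fitted alone 1 did. Atf4 itself had 118, 139.6, 96.8 and 104 CPM in combined livers, against 106, 164, 103 and 112 CPM in WT livers. Atf4 overlapped between the groups and was not called (log2 -0.08 ± 0.17, adjusted p = 0.838). Gdf15, a hormone of cell stress that lowers appetite, had 18, 53.8, 29.5 and 7.63 CPM in combined livers, against 7.65, 4.24, 4.08 and 2.98 CPM in WT livers. Combined replicate 4 and WT replicate 1 were level, and Gdf15 rose 5.76-fold (log2 2.53 ± 0.52, adjusted p = 0.00992), a call that was lost with these 2 groups fitted alone (adjusted p up to 0.0559). Fgf21, the fasting hormone of liver, had 8.48, 36.8, 13.4 and 9.06 CPM in combined livers, against 2.59, 4.9, 6.28 and 3.23 CPM in WT livers, without overlap (log2 1.99 ± 0.56, adjusted p = 0.0459), and its call was lost without combined replicates 2 and 3, without WT replicates 1, 2, 3 and 4, without the 3 high acute phase livers, with limma-voom, with no filter and with these 2 groups fitted alone (adjusted p up to 0.146). Of 22 genes of the unfolded protein response none rose and 2 fell, 9.09% of the list against 7.04% of all genes. Only 1 fell without WT replicate 1 or 2 or combined replicate 2 or 3. Derl3, a protein of ER-associated degradation, had 2.03, 0.738, 3.93 and 1.92 CPM in combined livers, against 13.8, 17.2, 24.5 and 12.6 CPM in WT livers. Derl3 did not overlap between the groups (log2 -2.98 ± 0.57, adjusted p = 0.00629). Hspa5, the main ER chaperone, had 896, 624, 963 and 512 CPM in combined livers, against 1204, 2241, 436 and 448 CPM in WT livers, highest in WT replicate 2 (log2 -0.53 ± 0.52, adjusted p = 0.601). Of 26 p53 and cell cycle genes 5 rose (19.2%), and 2 or 3 did without WT replicate 1, 2, 3 or 4, without combined replicate 2 or 3 or without the 3 high acute phase livers. Ccng1, a p53 target, had 31.8, 37, 34.8 and 32.8 CPM in combined livers, against 22.5, 19, 20.1 and 20.8 CPM in WT livers. For Ccng1, every combined liver lay above every WT liver (log2 0.73 ± 0.13, adjusted p = 0.00319). The proliferation marker Mki67 had 0.977, 2.61, 1.81 and 1.29 CPM in combined livers, against 0.917, 1.68, 1.99 and 1.82 CPM in WT livers. Mki67 overlapped between the groups and was not called (log2 0.06 ± 0.35, adjusted p = 0.945). Of 13 HSF1 chaperones none was called in either direction by edgeR, DESeq2 or limma-voom, with 0 at an unadjusted p under 0.05. Of 19 clock genes 1 rose and 1 fell (10.5%), neither of them without WT replicate 3 or combined replicate 2.

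Of 54 tested genes of lysosomes, the compartment of TMEM106B, 2 rose and 2 fell (median 0.13), 7.41% of the list and near the 7.04% of all genes. The count that rose was 4 without WT replicate 1, and 1 without WT replicate 2 or 3, any 1 combined liver or the 3 high acute phase livers. It was 6 with DESeq2 and 8 with limma-voom, which called 1851 and 1940 of all genes. The nearness to the share of all genes thus holds for edgeR. The count that fell was 1 without WT replicate 1, 2 or 3 or combined replicate 2, 3 or 4. Tmem106c, a relative of Tmem106b, had 23.3, 26.9, 27 and 24.8 CPM in combined livers, against 19.6, 16.4, 16.4 and 17.5 CPM in WT livers, higher in every combined liver (log2 0.54 ± 0.12, adjusted p = 0.00888). Grn, progranulin, had 264, 170.3, 217 and 223 CPM in combined livers, against 162, 166, 208 and 230.5 CPM in WT livers. Grn was not called (log2 0.19 ± 0.15, adjusted p = 0.487). Of 19 V-ATPase subunits 2 rose and 1 fell (Tcirg1), 15.8% of the list. The fall was lost without WT replicate 3 or 4 or combined replicate 2, 3 or 4. Besides Atp6v0e2, the d2 subunit Atp6v0d2, which also belongs to the female-biased list, had 6.12, 2.26, 3.92 and 2.83 CPM in combined livers, against 0.623, 0.888, 0.993 and 1.27 CPM in WT livers. Atp6v0d2 did not overlap between the groups (log2 1.996 ± 0.40, adjusted p = 0.00608). Among 20 RNA-binding proteins related to TDP-43 none was called in either direction by edgeR (3 at an unadjusted p under 0.05, 0 with DESeq2 and 1 with limma-voom), with a median of -0.17.

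Several complement genes fell. Of 30 complement genes 7 fell and none rose (C6, C2, C1ra, C8a, C4a, C8b and C9), with a median of -0.27. That was 23.3% of the list, against 7.04% of all genes. In that list 4 fell without combined replicate 2, and 10 fell and 1 rose without the 3 high acute phase livers. With limma-voom 8 fell and 2 rose. C6, C8a and C9 also count among the male-biased genes that fell. C6, a subunit of the membrane attack complex and male-biased, had 85.7, 72.6, 114 and 109 CPM in combined livers, against 381, 386, 301 and 294 CPM in WT livers. C6 fell 3.57-fold (log2 -1.84 ± 0.22, adjusted p = 0.000142). C2, which forms the classical convertase, had 7.64, 3.43, 6.13 and 7.25 CPM in combined livers, against 11.4, 10.2, 15.2 and 18.8 CPM in WT livers. For C2, every combined liver lay below every WT liver (log2 -1.19 ± 0.21, adjusted p = 0.00287). C3, the central component, had 6003, 2614, 3716 and 2871 CPM in combined livers, against 4918, 5760.3, 4465 and 5358 CPM in WT livers, with combined replicate 1 the highest of all, and was not called (log2 -0.43 ± 0.23, adjusted p = 0.274). Of 26 acute phase genes 1 fell (Serpina3k) and none rose, 3.85% of the list against 7.04% of all genes. In that list 5 fell without the 3 high acute phase livers and 2 without combined replicate 1. Of 34 interferon-stimulated genes only Irf5 was called (2.94%, against 7.04% of all genes). Irf7, a factor that interferon induces, had 46.1, 46.1, 33.1 and 29.6 CPM in combined livers, against 38.6, 57.4, 46.2 and 44.8 CPM in WT livers, with overlap. Of 24 cytokines and chemokines none was called in either direction by edgeR (3 at an unadjusted p under 0.05, 2 with DESeq2 and 3 with limma-voom). H2-Q10, a secreted class I molecule of liver, had 3647, 3819.9, 4458 and 3894 CPM in combined livers, against 2664, 2665, 2332 and 2494 CPM in WT livers. H2-Q10 lay above WT in all 4 combined livers (log2 0.64 ± 0.10, adjusted p = 0.00135).

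Of 29 galectins, annexins, S100 proteins and tetraspanins 8 rose and 2 fell, and 1 fell without WT replicate 2 or 3 or combined replicate 2, 3 or 4. The share called was 34.5%, against 7.04% of all genes. Lgals1, galectin 1, had 58.9, 89.5, 86.1 and 94.8 CPM in combined livers, against 24.9, 16.1, 16.8 and 22.5 CPM in WT livers. Lgals1 rose 4.1-fold (log2 2.03 ± 0.21, adjusted p = 4.09e-05). S100a10 and its partner Anxa2, which bind each other at the membrane, both rose. S100a10 had 151, 157, 155 and 146 CPM in combined livers, against 50.1, 75.6, 44.6 and 70.0 CPM in WT livers. S100a10 did not overlap between the groups (log2 1.34 ± 0.17, adjusted p = 0.000246). Anxa2 had 14.1, 44.2, 32.9 and 22.1 CPM in combined livers, against 10.4, 9.55, 8.69 and 9.53 CPM in WT livers. For Anxa2, every combined liver lay above every WT liver (log2 1.57 ± 0.29, adjusted p = 0.00395). S100a11 had 7.35, 10.2, 8.25 and 10.0 CPM in combined livers, against 3.37, 4.35, 3.23 and 3.62 CPM in WT livers. S100a11 lay above WT in all 4 combined livers (log2 1.297 ± 0.18, adjusted p = 0.000379). Of 34 collagen and matrix genes 9 rose and none fell (median 0.54), 26.5% of the list against 7.04% of all genes. Col1a2, 1 of those that rose, lies within 20 Mb of Tmem106b. In that list 4 rose without WT replicate 4, combined replicate 2 or combined replicate 3. Without the 3 high acute phase livers 7 rose and 1 fell. With DESeq2 12 rose and 2 fell, as with limma-voom. The list summed to 1525 ± 131 CPM in combined livers and 1591 ± 153 CPM in WT livers (SD, n = 4). Its total was thus not higher in combined livers. Col1a1, the main fibrillar collagen, had 4.14, 8.92, 12.9 and 5.75 CPM in combined livers, against 2.3, 3.33, 2.84 and 2.02 CPM in WT livers. Col1a1 did not overlap between the groups (log2 1.60 ± 0.30, adjusted p = 0.00405). Col3a1, another, had 20.04, 30.8, 39.4 and 19.4 CPM in combined livers, against 13.8, 10.5, 13.1 and 9.69 CPM in WT livers. For Col3a1, every combined liver lay above every WT liver (log2 1.22 ± 0.21, adjusted p = 0.00178). Of 15 stellate cell markers none was called in either direction by edgeR (2 at an unadjusted p under 0.05, 1 with DESeq2 and 2 with limma-voom), and 1 rose without the 3 high acute phase livers. Lrat, which stores retinol as esters in these cells, had 7.55, 9.08, 9.05 and 9.2 CPM in combined livers, against 11.1, 5.61, 9.64 and 6.97 CPM in WT livers, with overlap. The summed level of the list was 346.6 to 405.2 CPM in combined livers and 282.2 to 355.6 CPM in WT livers. The part of stellate cells in the rise of the 9 collagen and matrix genes was not tested.

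Of 20 Kupffer cell markers 1 fell (Id3), 5% of the list against 7.04% of all genes, and none was called without WT replicate 2, combined replicate 1, 3 or 4 or the 3 high acute phase livers (adjusted p for Id3 = 0.0219 with all livers). Clec4f, a Kupffer cell lectin, had 90.4, 92.9, 59.7 and 62.7 CPM in combined livers, against 58.5, 57, 78.2 and 133 CPM in WT livers. The list summed to 529.1 to 673.5 CPM in combined livers and 608.0 to 838.3 CPM in WT livers. Of 14 recruited macrophage markers Cd9 rose and Cd207 fell (14.3%), and the Cd9 call was lost without WT replicate 3 or combined replicate 1, 2 or 3. Cd207, langerin, had 0.667, 0.527, 0.796 and 0.19 CPM in combined livers, against 2.77, 4.03, 2.48 and 1.65 CPM in WT livers. All combined livers were below all WT livers for Cd207 (log2 -2.31 ± 0.37, adjusted p = 0.0012). It lies on chromosome 6, 70.6 Mb from Tmem106b. Neutrophil markers were low: 6 of 12 passed the filter, with a median of -1.96 and sums of 2.17 to 6.39 CPM in combined livers and 6.08 to 21.5 CPM in WT livers, and none was called by edgeR (5 at an unadjusted p under 0.05, 2 with DESeq2 and 1 with limma-voom), and 2 fell without the 3 high acute phase livers. S100a8, a neutrophil calgranulin, had 0.419, 0.346, 0.109 and 0.207 CPM in combined livers, against 0.848, 3.22, 0.797 and 0.536 CPM in WT livers. S100a8 lay below WT in all 4 combined livers and was not called (log2 -2.30 ± 0.69, adjusted p = 0.0575). Of 19 T, NK and B cell markers 1 fell (5.26%), Cd4, with 0.45, 0.301, 0.39 and 0.518 CPM in combined livers, against 1.11, 0.629, 1.44 and 2.28 CPM in WT livers. For Cd4, every combined liver lay below every WT liver (log2 -1.73 ± 0.39, adjusted p = 0.0136). In that list 3 fell without the 3 high acute phase livers. Of 21 endothelial markers none was called by edgeR (4 at an unadjusted p under 0.05, 1 with DESeq2 and 2 with limma-voom). Of 22 pericentral genes none was called by edgeR (2 at an unadjusted p under 0.05, 1 with DESeq2 and 2 with limma-voom). Of 18 periportal genes 2 rose (Aldh1b1 and Apoa4), 11.1% of the list.

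A pair of genes split the combined livers themselves. Ren1, which encodes renin, had 0.031, 7.18, 39 and 24.4 CPM in combined livers, against 0.225, 0, 0.014 and 0.0282 CPM in WT livers. Ctse, cathepsin E, had 0.233, 50.8, 20.9 and 19.95 CPM in combined livers, against 0.467, 0.0555, 0.336 and 0.113 CPM in WT livers. Combined replicate 1 stood at the WT level for both genes while the other 3 were far above it. Both lie on chromosome 1, Ctse at 131638306 to 131675505 and Ren1 at 133350510 to 133360325. In livers labelled TMEM106B-/- alone Ren1 had 11.1, 41.6, 27.9 and 0.0265 CPM and Ctse 23.9, 15.8, 20.3 and 0.251 CPM, with replicate 4 at the WT level. Those livers at the WT level were also high in Saa1. Both calls held without the 3 high acute phase livers. The call of Ren1 was lost without combined replicates 3 and 4, without WT replicates 2, 3 and 4, with limma-voom, with no filter and with these 2 groups fitted alone (adjusted p up to 0.599). That of Ctse was lost without WT replicates 2, 3 and 4, with limma-voom and with these 2 groups fitted alone (adjusted p up to 0.389). Chrna4, a nicotinic receptor subunit, had 51, 162, 80.1 and 17.7 CPM in combined livers, against 3.22, 0.74, 6.69 and 1.47 CPM in WT livers. Chrna4 lay above WT in all 4 combined livers (log2 4.67 ± 0.87, adjusted p = 0.00635). It averaged 49.9 ± 25.3 CPM in TMEM106B-/- and 38.5 ± 27.1 CPM in TDP-43Q331K livers. Tceal8, an X-linked gene, had 32.4, 32.7, 13.9 and 25.4 CPM in combined livers, against 4.45, 4.57, 3.97 and 4.82 CPM in WT livers, lowest among combined livers in replicate 3 (log2 2.55 ± 0.22, adjusted p = 3.66e-06). Gm3839 on chromosome 14 had 1.07, 0.753, 1.06 and 1.19 CPM in combined livers, against 10.6, 7.86, 12 and 9.67 CPM in WT livers. Gm3839 did not overlap between the groups (log2 -3.30 ± 0.23, adjusted p = 4.32e-07).

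The combined livers were also set against each single genotype, in comparisons that share the combined libraries. Against TDP-43Q331K livers 658 genes were called (3.94%) and against TMEM106B-/- livers 173 (1.04%). Hsd3b5 averaged 8.1 ± 2.67 CPM in combined livers, 124 ± 29.5 CPM in TMEM106B-/-, 165 ± 32.1 CPM in TDP-43Q331K and 196 ± 36.7 CPM in WT (SD, n = 4 each), and passed against both single genotypes (adjusted p = 5.06e-07 against TMEM106B-/- and 1.12e-07 against TDP-43Q331K). Cyp2b9 averaged 118 ± 37.9 CPM in combined livers, 0.715 ± 0.768 CPM in TMEM106B-/-, 2.5 ± 1.8 CPM in TDP-43Q331K and 0.515 ± 0.369 CPM in WT, and passed against both (adjusted p = 0.000929 and, against TDP-43Q331K, 0.00109). For Cd36 the means were 132 ± 18.1 CPM in combined livers, 41 ± 9.11 CPM in TMEM106B-/-, 33.9 ± 7.05 CPM in TDP-43Q331K and 24.7 ± 4.1 CPM in WT, with adjusted p = 0.000136 against TMEM106B-/- and 9.72e-06 against TDP-43Q331K. Gpat3 averaged 9.27 ± 2.66 CPM in combined livers, 1.74 ± 0.268 CPM in TMEM106B-/-, 1.18 ± 0.349 CPM in TDP-43Q331K and 1.66 ± 0.34 CPM in WT (adjusted p = 7.01e-05 against TMEM106B-/-). For Scd1 and Dhcr7 the difference from TMEM106B-/- alone did not pass. Scd1 averaged 11289 ± 3017 CPM in combined livers, 10491 ± 1933 CPM in TMEM106B-/-, 7289 ± 2621 CPM in TDP-43Q331K and 3215 ± 923 CPM in WT, with adjusted p = 0.91 against TMEM106B-/- and 0.183 against TDP-43Q331K. Dhcr7 averaged 115 ± 20.7 CPM in combined livers, 111 ± 19 CPM in TMEM106B-/-, 79.1 ± 8.06 CPM in TDP-43Q331K and 47.8 ± 5.54 CPM in WT (adjusted p = 0.917 against TMEM106B-/-). A p above the threshold does not show that 2 groups are alike.

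**Figure D5:**
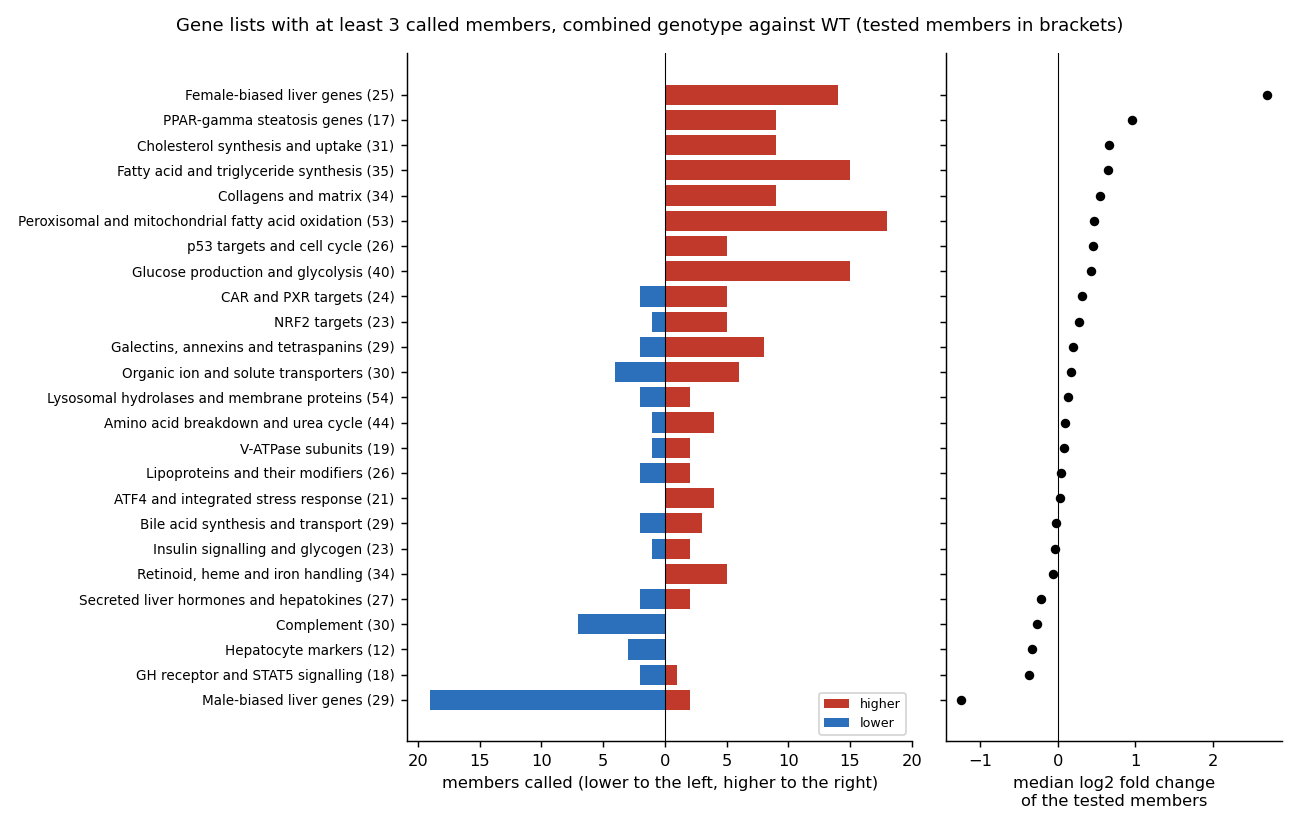
Gene lists with at least 3 called members: bars give members that fell, left of 0, and that rose, right of 0, and points the median log2 fold change of the tested members (number in brackets), combined genotype over WT. Female-biased genes (14 of 25 rose) and male-biased genes (19 of 29 fell) lie at the ends, with lipid and glucose lists in between. The female-biased count is a description, since members near 0 in WT could hardly fall.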

How the data were processed

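Liver RNA was sequenced from directional libraries, per the labels' protocols. The deposited values are raw counts per gene, whole numbers with no normalization by the authors. Per the submitters' processing notes, FastQC, cutadapt and Trim Galore were used and mm10 and GRCm38 are the builds. The program that aligned the reads, the one that counted them, its strand setting and its handling of reads shared by copies were not given in the sources used here. All 55536 gene identifiers matched GENCODE M21, which gave symbols and positions.

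All 16 liver libraries (50.5 to 74.1 M counts) were fitted together with R 4.3.3 and edgeR 4.0.16 by filterByExpr (minimum count 10, minimum total 15), TMM scaling and the robust quasi-likelihood test, two-sided, with 12 residual degrees of freedom and a common biological coefficient of variation of 0.235. Groups came from the labels, and since nothing says that the samples are separate animals, p-values reflect the spread among the samples alone, and this may be technical. Named genes were Tmem106b and Tardbp, the 12 smallest p-values, 8 largest changes at 5 CPM or more and 6 most abundant called genes in each direction, key members of 54 lists and up to 5 called members of each, called neighbours of the targeted genes, and called genes near 0 in 1 group; other called members may be listed by name. The members, lists, families and rules were chosen with earlier results of these data known. Lists are described by counts, with no test. On simulated counts for 16710 genes, 17% of 1.5-fold and 74% of 3-fold changes of this comparison were recovered, none in the wrong direction, and 3.19% of calls were false. Alternatives were DESeq2 1.42.0, limma-voom (limma 3.58.1) with quality weights, RLE, no filter, at least 1 CPM in 4 libraries, the compared groups alone, replicate number as a block, each library left out and, chosen after seeing the data, 3 livers with high acute phase transcripts left out (WT replicate 2, TMEM106B-/- replicate 4 and combined replicate 1). The cortex table was not used here.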

Additional observations from a re-analysis of the deposited data

Results flagged for a closer look

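Within groups of 4 libraries, 1 library stood apart from the other 3 by Dixon's criterion in 11 of 316 gene and group pairs examined, where chance alone flags about 1 in 20 groups. Among combined livers, replicate 1 was highest for Lifr at 141.4 CPM and replicate 3 highest for Ntrk2, a neurotrophin receptor of the female-biased list, at 9.87 CPM. In WT livers, replicate 1 was highest for Scd1 (4595 CPM), Gbe1 (66.8 CPM) and Ren1 (0.225 CPM) and lowest for Crat (37.2 CPM). WT replicate 2 was lowest for Pgd (28.9 CPM) and Gm37795 (0.352 CPM) and highest for Retn (0.037 CPM). WT replicate 4 was lowest for Gstp1 (2357 CPM) and Slc17a2 (209.2 CPM). For all 11 genes except Ren1 the 4 combined and 4 WT livers did not overlap.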

How the results depend on the processing

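Called genes against WT numbered 1851 (1065 higher, 786 lower) with DESeq2, 1940 (1075 and 865) with limma-voom, and 910 with the compared groups alone, of which 308 were lower. Leaving out 1 library gave 681 to 1196 called genes, 452 to 675 higher and 221 to 521 lower. Against TDP-43Q331K the counts were 1317 with DESeq2, 1865 with limma-voom and 248 to 703 with 1 library left out. Against TMEM106B-/- they were 536 with DESeq2, 376 with limma-voom, 81 with the compared groups alone and 77 to 155 with 1 library left out. Leaving out a library tests fewer samples, and the cause of the other shifts was not tested. With 3 livers of high acute phase level left out, an alternative added with the data seen, 901 genes were called, 709 of them among the 1176. Replicate numbers did not pair the samples (correlations of same-numbered deviations -0.069, 0.09, -0.08 and 0.187), and with replicate number as a block 980 genes were called, 612 higher and 368 lower, and 14 of the 158 calls of named genes were lost, that of Ren1 among them. In many lists small counts moved too: over the alternatives 185 list counts moved by more than 1.5 times and 679 did not. Of those 158 calls 110 held under all 16 alternatives, and none of the 158 changed sign; of 75 named genes that were not called, 26 changed sign under at least 1 alternative. Depth limits genes near 0, whose values rest on few counts.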

Other observations

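Cytosolic ribosomal protein genes, a group chosen after seeing the data, were lower on balance. Of 81 tested Rpl and Rps genes 21 fell (25.9%, against 7.04% of all genes called) and none rose. Their median log2 fold change was -0.35, and they summed to 14960 CPM in combined livers and 18025 CPM in WT livers on average, with overlapping groups. This count moved with single livers: it was 2 without WT replicate 2, 12 without WT replicate 3, 5 without WT replicate 4, 32 without combined replicate 1, 3 without combined replicate 2, 2 without combined replicate 3 and 4 without combined replicate 4. The median stayed between -0.41 and -0.28 under all 16 alternatives. Of 77 mitochondrial ribosomal genes none was called by edgeR (16 at an unadjusted p under 0.05, 3 with DESeq2 and 6 with limma-voom), nor of 46 respiratory chain Nduf genes (8 at an unadjusted p under 0.05, 5 with DESeq2 and 3 with limma-voom). Of 39 proteasome genes Psmb5 fell (2.56%). Of 11 immunoglobulin constant genes 4 fell (36.4%) and none rose. How these calls depended on single livers was not examined. The T, NK and B cell list, which holds Ighm and Igkc, overlapped between the groups and was highest in WT replicate 3. It summed to 128.8, 82.8, 102.7 and 101.7 CPM in combined livers, against 79.7, 58.0, 290.1 and 103.4 CPM in WT livers. Of 11 tested Y-linked genes 2 fell (18.2%). Of 30 organic ion and solute transporters 6 rose and 4 fell (33.3%, against 7.04% of all genes). Without the 3 high acute phase livers 7 rose and 2 fell. Slc17a4 had 55.6, 83.9, 69.1 and 67.1 CPM in combined livers, against 18.1, 29.9, 23 and 34.5 CPM in WT livers. For Slc17a4, every combined liver lay above every WT liver (log2 1.38 ± 0.22, adjusted p = 0.0012). Slc17a2, in the same phosphate transporter family, fell 1.62-fold (log2 -0.70 ± 0.15, adjusted p = 0.0082). Fabp2, the fatty acid binding protein of intestine, had 119, 208, 159 and 163 CPM in combined livers, against 90.8, 69.6, 78.2 and 95 CPM in WT livers. Fabp2 lay above WT in all 4 combined livers (log2 0.96 ± 0.18, adjusted p = 0.00389). Fabp2 also counts among the PPAR-gamma genes that rose. Of 14 pancreas and gut genes 4 were tested. Besides Fabp2, Cela1, an elastase gene, was called, with 13, 11.3, 14.6 and 15.9 CPM in combined livers, against 29.9, 33.6, 26.2 and 22.2 CPM in WT livers. Cela1 did not overlap between the groups (log2 -1.03 ± 0.20, adjusted p = 0.00554). The pancreatic genes Prss1, Cpa1 and Pnlip were below the filter.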
